A study of Mus musculus with 10 samples.

Results

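The epithelial cells labelled Bsecs and the luminal epithelial cells of mouse mammary gland, both from animals titled Bptf knockout (KO), were compared gene by gene. A gene entered the comparison where the mean of its normalised counts in KO Bsecs and KO luminal cells was at least 50. That held for 6665 of the 24000 genes listed, and 14800 genes had at least 1 read in either group. At the lower edge, Mmp9 entered with a mean of 50.01 (71 counts in KO Bsecs and 16 in KO luminal cells), and Rassf9 did not enter with a mean of 49.8 (2 and 119 counts).

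KO Bsecs were FACS-sorted mammary epithelial cells of female BptfKO mice, and the labels do not spell the name Bsecs out. KO luminal cells were FACS-sorted luminal cells whose sample titles say Bptf KO but whose source field says BptfWT mice, so the genotype of this group rests on its titles. WT luminal cells and the myoepithelial (basal) cells of KO and WT females are used below only to place genes. The mice had received tamoxifen at a total of 15 mg/kg. The sources used here do not state the promoter that drives the recombinase, the age of the mice or any pooling of animals.

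Each of the 5 groups had 2 libraries, but each deposited column holds 1 value per gene for a whole group. The spread between libraries is therefore unknown, and no test here rests on replicates. A 95% Clopper-Pearson interval is given on ratios; it covers counting error only, and reads amplified by PCR are not independent molecules in the absence of molecular identifiers. "Higher" and "lower" describe these pooled columns, and a gene is counted as past the limit where the columns differed by at least 4-fold. The KO Bsecs column summed to 3659403 counts over 12497 detected genes, and the KO luminal column to 3840462 counts over 13927 genes. Rn45s, the ribosomal RNA precursor, took 32.2% of the counts in KO Bsecs and 15.9% in KO luminal cells, and its part in the results was not tested. Values given without the word count are normalised counts.

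The mammary duct is a bilayer. Luminal cells line the lumen, carry keratins of simple epithelium and include the hormone-sensing and milk-forming cells. Basal cells lie against the basement membrane, carry the keratins Krt5 and Krt14 and contract on oxytocin to expel milk. Bptf is the largest subunit of NURF, a complex that slides nucleosomes with an ATPase of the ISWI family. Bptf, the targeted gene, had 790.0 in KO Bsecs and 831 in KO luminal cells, a ratio of 0.9504 (95% interval 0.860 to 1.05). On a scale common to all columns its level was 679.6 in KO Bsecs, 736 in KO luminal cells and 571 in WT luminal cells, so neither KO column stood below the WT luminal column. These are totals over the gene, and whether they cover the deleted part is not given in the sources used here, so they check neither label.

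Start-site sequences of 3 genes at the extremes of the comparison are shown, so that the letters around them can be read. Serpinb2 was among the 15 genes farthest higher in KO Bsecs, and Prlr and Atp6v1b1 were among the 15 farthest lower. They are RefSeq windows on GRCm38.p6, on the plus strand, from 250 bases before to 50 bases after the gene start. Capitals mark a match to a loose AP-1 pattern (TGANTCA, where N is any base) in Serpinb2 at chr1:107511173-107511472, with A at the N. They also mark a forkhead motif (TGTTTAC) in Prlr at chr15:10223656-10223955 and in Atp6v1b1 at chr6:83742767-83743066. Both strands were searched, and no motif overlaps another in these windows. They are the first windows found with AP-1 letters among the 15 higher genes and with forkhead letters among the 15 lower genes.
Serpinb2: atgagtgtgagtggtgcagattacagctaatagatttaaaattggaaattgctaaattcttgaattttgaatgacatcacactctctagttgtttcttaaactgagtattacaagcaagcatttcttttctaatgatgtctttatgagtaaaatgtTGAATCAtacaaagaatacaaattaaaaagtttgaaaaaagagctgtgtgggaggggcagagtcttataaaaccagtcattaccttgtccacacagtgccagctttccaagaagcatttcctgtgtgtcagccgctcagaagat
Prlr: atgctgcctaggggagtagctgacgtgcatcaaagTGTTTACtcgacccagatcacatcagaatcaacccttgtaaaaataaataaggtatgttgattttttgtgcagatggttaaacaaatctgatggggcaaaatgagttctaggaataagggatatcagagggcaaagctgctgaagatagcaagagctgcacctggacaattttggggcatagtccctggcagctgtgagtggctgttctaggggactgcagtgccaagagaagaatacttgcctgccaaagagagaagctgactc
Atp6v1b1: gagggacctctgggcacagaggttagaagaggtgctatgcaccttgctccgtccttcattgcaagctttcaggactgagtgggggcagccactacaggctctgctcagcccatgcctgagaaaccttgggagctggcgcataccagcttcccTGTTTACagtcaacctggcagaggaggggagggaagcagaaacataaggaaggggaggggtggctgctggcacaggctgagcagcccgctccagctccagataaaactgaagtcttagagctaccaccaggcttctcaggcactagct
The capitals start at -94 from the gene start in Serpinb2, at -215 in Prlr and at -98 in Atp6v1b1. The AP-1 letters occurred in 7.23% of 415 windows of genes at least 4-fold higher in KO Bsecs and in 5.34% of 731 windows of genes at least 4-fold lower. They occurred in 5.33% of 6621 windows of the genes compared and in 7.81% of all 32851 windows. The forkhead letters occurred in 3.37% of windows of higher genes, 2.87% of lower genes, 2.40% of the genes compared and 3.65% of all windows. Windows were matched to 327 of the 427 genes at least 4-fold higher and to 505 of the 673 lower. Of the named genes, 9 of the 15 higher and 10 of the 15 lower had windows. The others, among them Ccnd2, Has2, Alox15 and Csn3, could not be searched. AP-1 letters were in 2 of 13 windows of the named higher genes, both of Serpinb2 and overlapping. They were in 3 of 15 windows of the named lower genes, those of Aoc1, Nrxn3 and Prlr. Forkhead letters were in 0 of 13 and in 2 of 15. For both motifs the share among all higher genes lay between that of the genes compared and that of all windows.

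Among the 6665 genes, 427 were higher in KO Bsecs by 4-fold or more (6.41%), and 673 were lower by as much (10.1%). The other 5565 genes lay between these limits, and 3684 genes (55.3%) were within 2-fold. Past 16-fold, 66 genes were higher and 169 lower, and past 64-fold, 22 were higher and 58 lower. With the columns scaled to their totals the counts were 207 higher and 1055 lower, so that higher genes made up 16.4% of those past 4-fold in place of 38.8%. With Rn45s left out of the totals, 315 were higher and 792 lower, a share of 28.5% higher. These scales moved every log2 ratio by -0.52 and -0.21. The median log2 ratio over the 6665 genes, with 1 added to each value, was 0.13 as deposited, -0.44 on totals and -0.10 on totals without Rn45s.

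**Figure D1:**
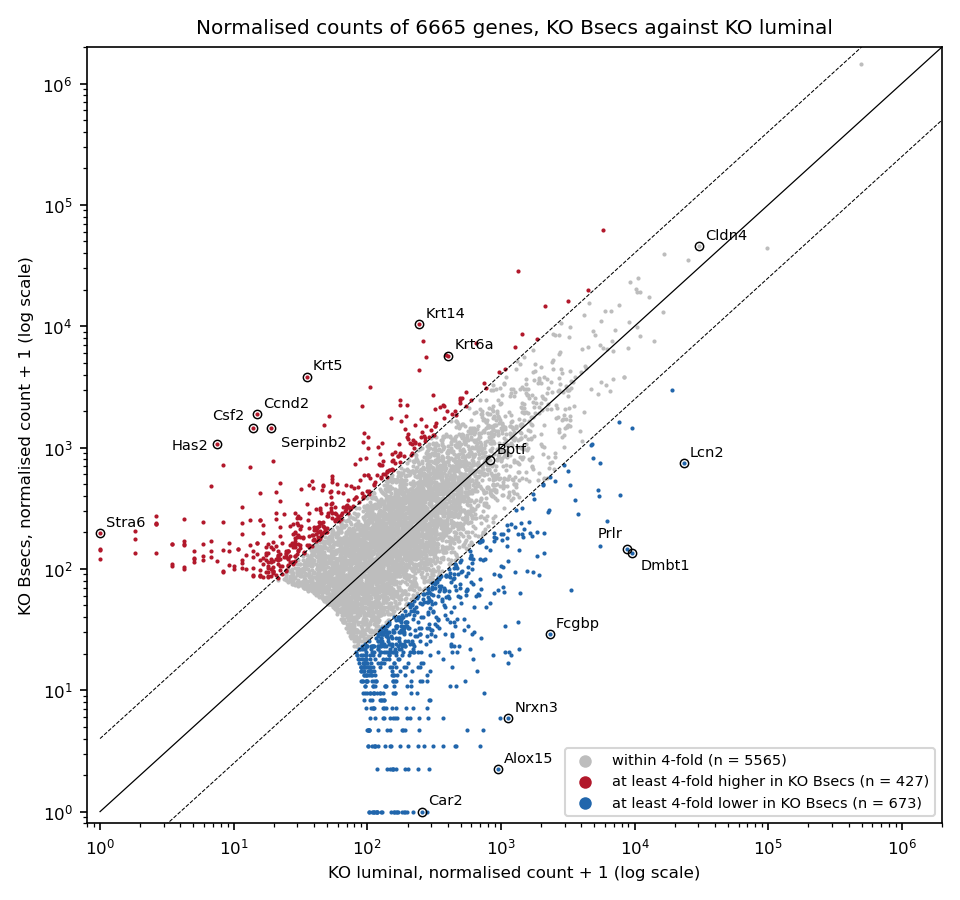
Normalised counts plus 1 of the 6665 genes in KO Bsecs (vertical, log scale) and KO luminal cells (horizontal, log scale), each point 1 gene in pooled columns of 2 libraries. The dashed lines mark 4-fold; 427 genes lie above the upper dashed line and 673 below the lower one, and extreme genes are named.

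The genes farthest higher in KO Bsecs, by the nearer bound of the counting interval, were led by Ccnd2, the D-type cyclin of the G1 phase. Ccnd2 had 1875 in KO Bsecs and 13.9 in KO luminal cells, 135-fold higher (95% interval 84.1 to 233). Has2, a hyaluronan synthase, had 1074 in KO Bsecs and 6.53 in KO luminal cells, 164-fold higher (95% interval 83.1 to 382). Krt5, the type II keratin of basal epithelium, had 3844 in KO Bsecs and 34.3 in KO luminal cells, 112-fold higher (95% interval 82.7 to 156). All 3 were close to absent from the KO luminal column, which held 17 counts of Ccnd2, 8 of Has2 and 42 of Krt5. Csf2, which encodes the cytokine GM-CSF, had 1444 in KO Bsecs and 13.1 in KO luminal cells, 111-fold higher (95% interval 67.8 to 194). Serpinb2, the plasminogen activator inhibitor PAI-2, had 1445 in KO Bsecs and 18.0 in KO luminal cells, 80.5-fold higher (95% interval 52.9 to 129). A cytokine and a protease inhibitor thus stood beside a keratin and a cyclin at the top of the order.

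Stra6, the membrane receptor for retinol-binding protein, had 161 counts in KO Bsecs and 0 in KO luminal cells, at least 80.5-fold higher when the luminal column is set to a floor of 3 counts. Nlrp10, an inflammasome-family protein, Islr and Moxd1 were likewise at 0 in KO luminal cells and at least 59.5, 58.0 and 49.0-fold higher. Fst, the secreted inhibitor of activin, had 192 counts in KO Bsecs and 2 in KO luminal cells, 144-fold higher (95% interval 39.3 to 1198). Dsg3, the desmosomal cadherin of stratified epithelium, had 193 and 2, 145-fold higher (95% interval 39.5 to 1204). With so few luminal counts, these folds are known only within wide intervals. Cth, an enzyme of cysteine synthesis, had 222 and 2 counts, Emb, a basigin relative, 168 and 1, and Igfbp3, which binds insulin-like growth factors, 392 and 7. Skint3, of a family of similar genes among which reads may be split, had 589 and 9 counts.

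In the other direction the order was led by Alox15, an arachidonate lipoxygenase, with 1 count in KO Bsecs and 1164 in KO luminal cells, 776-fold lower (95% interval 139 to 30676). Nrxn3, a neurexin, had 4 and 1390 counts, 232-fold lower (95% interval 90.3 to 851). Muc4, a membrane mucin, had 2 and 858, 286-fold lower (95% interval 78.9 to 2365). These genes were all but missing from the KO Bsecs column. Ltf, the iron-binding milk protein lactoferrin, had 4 counts in KO Bsecs and 1208 in KO luminal cells, 201-fold lower (95% interval 78.4 to 740.1). Csn3, kappa-casein, had 3 and 900, 200-fold lower (95% interval 68.2 to 972). The milk proteins Ltf and Csn3 were thus among the strongest differences. Dmbt1, a secreted scavenger receptor of mucosal surfaces, had 133 in KO Bsecs and 9544 in KO luminal cells, 71.5-fold lower (95% interval 59.2 to 87.1). Prlr, the prolactin receptor, had 146 in KO Bsecs and 8794 in KO luminal cells, 60.3-fold lower (95% interval 50.4 to 72.9). Dmbt1 and Prlr rest on 109 and 119 counts in KO Bsecs, so their folds have narrow intervals.

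Car2, a carbonic anhydrase, was at 0 in KO Bsecs and had 315 counts in KO luminal cells, at least 70.0-fold lower against the floor of 3 counts. Clmn, calmin, Atp6v1b1, a subunit of the proton-pumping ATPase, and Upk2, a uroplakin, were also at 0 and at least 59.8, 54.0 and 52.0-fold lower. Fcgbp, a mucin-like secreted protein, had 23 counts in KO Bsecs and 2846 in KO luminal cells, and Muc1, a membrane mucin of luminal surfaces, 2 and 560. Aoc1, a diamine oxidase, had 3 and 678 counts, and Slc28a3, a nucleoside transporter, 2 and 556. In all, 25 of the 6665 genes were at 0 in KO Bsecs and 4 were at 0 in KO luminal cells.

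**Figure D2:**
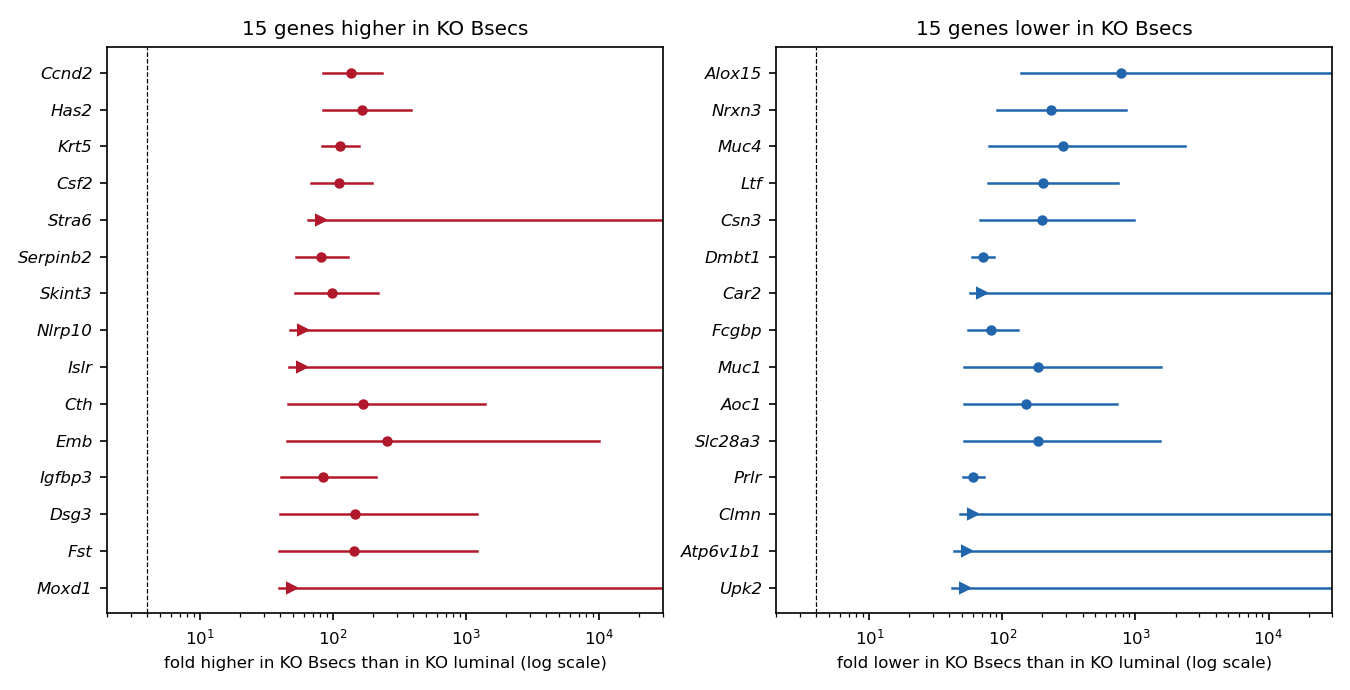
Fold difference (log scale) of the 15 genes farthest higher and the 15 farthest lower in KO Bsecs than in KO luminal cells, with 95% counting intervals as bars. Triangles are bounds for genes at 0 in a column and the dashed line marks 4-fold, beyond which all 30 intervals lie.

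Gene lists order the remaining results. Each list is described by how many of its genes entered, how many were past 4-fold and the median log2 ratio over its genes with any count, with 1 added to each value; over all 14800 such genes that median was -0.21. With counts of 0 set to a floor of 3, and the log2 ratio set to 0 for genes with at most 3 counts in both columns, it was 0.00, and over the 6665 genes that entered it was 0.13. Where a list's median differs with that floor or over its genes that entered, these values follow in brackets; genes that entered through 1 high column had to differ. Genes inside 4-fold that are named and are not defining markers of a cell type were chosen after their values were seen.

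Keratins of basal and wounded epithelium were higher in KO Bsecs. All 6 of the 8 listed genes that entered were at least 4-fold higher, with a median of 4.13 (4.62 over genes that entered). Krt14, the partner of Krt5, had 10398 in KO Bsecs and 243 in KO luminal cells, 42.7-fold higher (95% interval 38.1 to 48.1). Krt15, a basal-layer keratin, had 3132 in KO Bsecs and 105 in KO luminal cells, 30.0-fold higher (95% interval 25.1 to 36.1). Krt6a and Krt16, a pair that skin makes on wounding, had 5712 and 5617 in KO Bsecs, against 402 and 275 in KO luminal cells. The pair was 14.2-fold and 20.4-fold higher. Krt17 was 15.0-fold higher. Krt14, Krt16 and Krt17, and Krt6a with Krt6b, are similar in sequence, so reads may be split among them.

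Basal identity genes past the limit were higher in KO Bsecs. Of 24 listed genes 11 entered, 8 were at least 4-fold higher and none was lower, with a median of 2.26 (2.20 with the floor, 3.52 over genes that entered). Krt15, among these 8, was itself low in the basal columns described below. Trp63, the master transcription factor of basal epithelium, had 116 in KO Bsecs and 20.4 in KO luminal cells, 5.70-fold higher (95% interval 3.64 to 9.25). Col17a1, a hemidesmosome collagen, had 1735 in KO Bsecs and 150.2 in KO luminal cells, 11.6-fold higher (95% interval 9.90 to 13.5). Sparc, a matrix glycoprotein, and Vim, the filament protein vimentin, were 48.0-fold and 10.6-fold higher. Acta2, smooth muscle actin, had 168 in KO Bsecs and 75.1 in KO luminal cells, a ratio of 2.23 (95% interval 1.70 to 2.94). Myh11, smooth muscle myosin, had 19 counts in KO Bsecs and 25 in KO luminal cells, Cnn1, calponin, 4 and 11, and Oxtr, the oxytocin receptor, 1 and 0.

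The tables head the basal columns inconsistently as WT or KO, so they are called the larger and the smaller basal column after their totals of 2359861 and 2036681 counts, and the larger is given first. Acta2 had a common-scale level of 144 in KO Bsecs and 66.5 in KO luminal cells, and 11620.4 and 16618 in the basal columns. Myh11 had 20.02 and 18.1, and 4061 and 4599.5 in the basal columns. KO Bsecs therefore stood with the luminal column, far below both basal columns, for Acta2 and Myh11. On the smooth muscle list other genes were past the limit: Tpm2 and Tpm1, tropomyosins, were 11.3-fold and 4.44-fold higher, Myl9, a myosin light chain, 21.9-fold and Cald1, caldesmon, 5.29-fold. They were the 4 past 4-fold of 10 that entered, none was lower and the median was 1.35 (1.36 with the floor, 1.62 over genes that entered); 2 were past 4-fold on totals and 3 on totals without Rn45s.

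Luminal markers were lower in KO Bsecs in part. Of 18 pan-luminal genes that entered, 7 were at least 4-fold lower and none was higher, with a median of -1.67 (-1.45 over genes that entered). Krt8 had 822 in KO Bsecs and 4892 in KO luminal cells, 5.95-fold lower (95% interval 5.49 to 6.46). Krt18, its partner, had 2975 in KO Bsecs and 19103 in KO luminal cells, 6.42-fold lower (95% interval 6.16 to 6.70). Cldn3, a claudin, Prom1, the surface protein CD133, and Elf3, an epithelial transcription factor, were 21.6-fold, 5.42-fold and 4.91-fold lower. Other luminal genes stayed inside 4-fold. Epcam, the epithelial adhesion molecule, had 7617 in KO Bsecs and 6761 in KO luminal cells, a ratio of 1.13 (95% interval 1.09 to 1.16). Krt19 had 7497 in KO Bsecs and 13968 in KO luminal cells, a ratio of 0.537 (95% interval 0.521 to 0.553). Foxa1, a transcription factor of hormone-sensing cells, had a ratio of 0.953 (95% interval 0.800 to 1.13), and Gata3, a regulator of luminal fate, one of 0.281 (95% interval 0.238 to 0.331).

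Set beside the basal columns, Krt19 and Foxa1 were high in KO Bsecs. Krt19 had a common-scale level of 6449 in KO Bsecs and 12367 in KO luminal cells, and 35.6 and 154 in the basal columns. Foxa1 had 228 and 246, and 1.92 and 0 in the basal columns. Ehf, an epithelial ETS factor, had 142 and 268, and 0 in both basal columns. As a list, the luminal transcription factors summed to 3602 in KO Bsecs and 6700 in KO luminal cells. In the basal columns they summed to 4035 and 5840, above KO Bsecs. The pan-luminal markers summed to 23924 in KO Bsecs and 62884 in KO luminal cells, and to 5004 and 6719 in the basal columns. The KO Bsecs column thus held basal keratins together with Krt19, Foxa1 and Ehf. In bulk columns a mixture of cells and a single kind of cell with both sets of genes cannot be told apart, nor can fewer cells of a type and less RNA per cell.

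**Figure D3:**
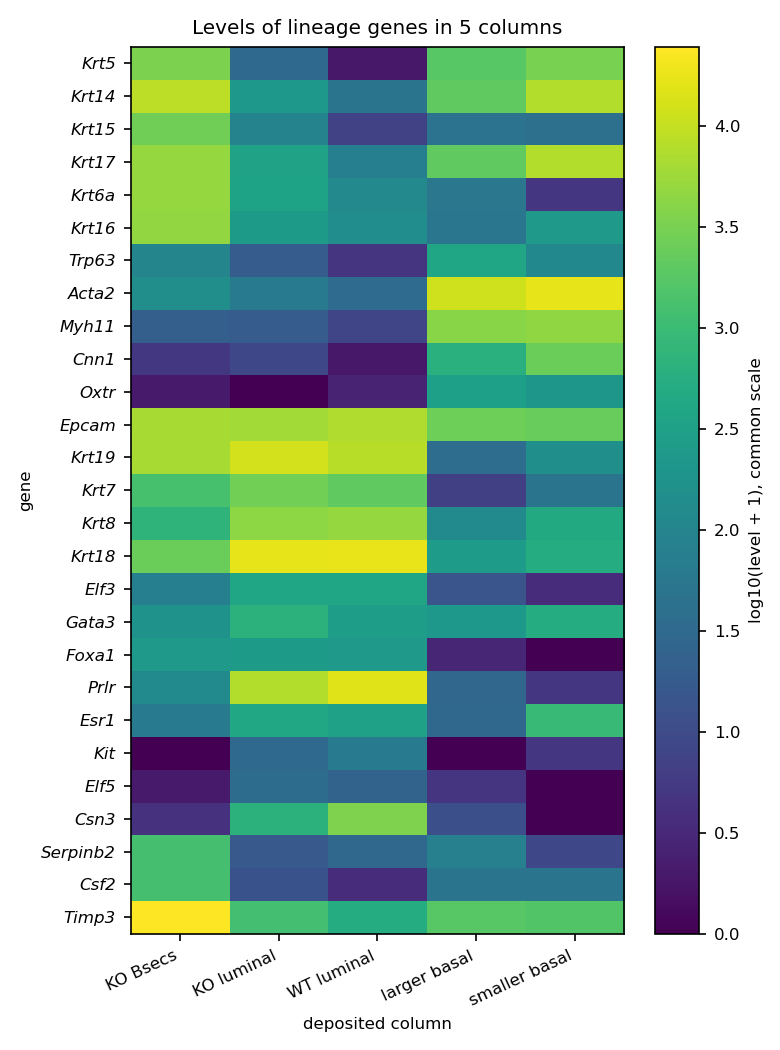
Common-scale levels (log scale, colour) of lineage genes (rows) in the deposited columns of KO Bsecs, KO luminal cells, WT luminal cells and the larger and smaller basal columns. Krt5 and Krt14 are high in KO Bsecs and both basal columns, Acta2 and Myh11 are high in the basal columns and low in KO Bsecs, and Krt19 is high in KO Bsecs and both luminal columns.

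Hormone-sensing genes were lower in part. Of 13 that entered, 6 were at least 4-fold lower and none was higher, with a median of -1.41 (-1.73 over genes that entered). Besides Prlr and Prom1, Esr1, the oestrogen receptor, had 73.5 in KO Bsecs and 489.9 in KO luminal cells, 6.67-fold lower (95% interval 5.11 to 8.84). Ly6a, the surface antigen Sca-1, was 9.27-fold lower, Areg, the EGF-family ligand amphiregulin, 4.08-fold and Wnt4, a progesterone-responsive Wnt ligand, 5.01-fold. Pgr, the progesterone receptor, had 431 in KO Bsecs and 1148 in KO luminal cells, a ratio of 0.376 (95% interval 0.333 to 0.422). The receptor genes Prlr, Esr1 and Pgr thus differed in size but all had lower values in KO Bsecs.

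Milk genes past the limit were lower in KO Bsecs. Of 19 listed milk and secretion genes, 7 entered. Of these, 6 were at least 4-fold lower and none was higher, with a median of -4.05 (-2.08 with the floor, -5.95 over genes that entered). The listed genes Csn2, Wap, Csn1s2a, Csn1s2b, Fabp3 and Olah were at 0 counts in both columns. Besides Ltf, Csn3 and Muc1, Trf, transferrin, had 15 counts in KO Bsecs and 1461 in KO luminal cells, 64.9-fold lower (95% interval 39.2 to 116). Lcn2, the iron-sequestering lipocalin, had 748 in KO Bsecs and 23296 in KO luminal cells, 31.1-fold lower (95% interval 28.7 to 33.8). Of 10 progenitor and alveolar genes that entered, 4 were lower: Aldh1a3, a retinaldehyde dehydrogenase, at 13.5-fold, Cd14, an endotoxin co-receptor, at 6.41-fold, the transcription factor Sox9 at 4.12-fold and Mfge8, a milk fat globule protein, at 4.16-fold. None was higher, and the median was -2.06 (-0.37 over genes that entered). Kit, a receptor of luminal progenitors, had 0 counts in KO Bsecs and 42 in KO luminal cells, and Elf5, the alveolar transcription factor, 1 and 48, both under a mean of 50.

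Of 17 transcription factors of the luminal lineage that entered, 14 were inside 4-fold. Runx1, by 4.19-fold, and Esr1 and Elf3, already named above, were at least 4-fold lower, and none was higher. Over all 6665 genes, 10.1% were lower and 6.41% higher by as much. The median of the list was -0.73 (-0.42 over genes that entered). Of 7 regulators of basal state and epithelial-mesenchymal transition that entered, Fn1, fibronectin, at 9.85-fold, Vim and Trp63 were higher and Sox9 was lower, with a median of 1.14 (0.44 with the floor, 0.73 over genes that entered); on totals 2 were higher and 1 lower. The transition factor Snai2 had 22 counts in KO Bsecs and 7 in KO luminal cells, and Snai1 0 and 1. Of 9 genes associated with mammary stem cells, the Notch ligand Dll1 and Procr, the protein C receptor, were 30.7-fold and 8.77-fold higher, and none was lower, with a median of 1.78 (1.83 with the floor, 1.28 over genes that entered). Lgr5, a stem-cell receptor, had 1 count in each column.

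Epidermal genes went in both directions. Of 16 that entered, 5 were past 4-fold higher and 4 past 4-fold lower, with a median of 0.01 (0.00 with the floor, 0.34 over genes that entered). Sfn, the 14-3-3 sigma protein of stratified epithelium, had 61724 in KO Bsecs and 5845 in KO luminal cells, 10.6-fold higher (95% interval 10.3 to 10.8). Serpinb5, maspin, was 4.84-fold higher, Calml3, a calmodulin-like protein, 6.30-fold and Ovol1, an epidermal transcription factor, 4.76-fold. Klk10, a kallikrein protease, was 127-fold lower and Tgm1, the transglutaminase of the cornified envelope, 49.0-fold. Evpl, envoplakin, was 13.9-fold lower and Sbsn, suprabasin, 7.51-fold. On totals, 3 were higher and 4 lower.

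Krt1, Krt10, Ivl and Lor, markers of differentiated skin, had few or no counts in both columns. Krt1 had 0 counts in KO Bsecs and 4 in KO luminal cells, Krt10 3 and 1, Ivl, involucrin, 3 and 4, and Lor, loricrin, 0 and 1. Sprr1a, an early envelope protein, was counted often in both, with 6474 in KO Bsecs and 4074 in KO luminal cells, a ratio of 1.59 (95% interval 1.53 to 1.65). Its common-scale level was 467 in WT luminal cells and 47.1 and 0 in the basal columns. Among 5 simple-epithelium keratins that entered, Krt8 and Krt18 were lower and Krt23 was 5.55-fold higher, with a median of -1.01 (-1.13 over genes that entered); on totals Krt23 was inside 4-fold.

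Desmosome and adherens genes past the limit were mostly higher in KO Bsecs. Of 17 desmosome and adherens genes that entered, 4 were at least 4-fold higher and 1 lower, with a median of 0.54 (0.46 with the floor, 0.46 over genes that entered). Besides Dsg3, Cdh3, the P-cadherin of basal cells, had 532 in KO Bsecs and 37.6 in KO luminal cells, 14.2-fold higher (95% interval 10.4 to 19.6). Pkp1, a desmosomal plaque protein, was 8.41-fold higher and Perp, a desmosomal membrane protein, 5.25-fold. Pvrl4, nectin-4, was 24.6-fold lower, and Dsc1, a desmocollin of skin, was at 0 in both columns; on totals 3 genes were higher and 1 lower. Cdh1, the E-cadherin of both layers, had 17477 in KO Bsecs and 12741 in KO luminal cells, a ratio of 1.37 (95% interval 1.34 to 1.40).

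Of 16 tight junction genes that entered, 4 were at least 4-fold lower and none was higher. Over all 6665 genes, 10.1% were lower and 6.41% higher by as much. Cldn1, Cldn3, Tjp3 and Marveld3, claudins and junction scaffolds or membrane proteins, were 32.5-fold, 21.6-fold, 10.3-fold and 5.80-fold lower, and the median was -1.15 (-1.16 with the floor). On totals, 8 of the 16 were lower. Cldn4, another claudin, had 45401 in KO Bsecs and 30512 in KO luminal cells, a ratio of 1.49 (95% interval 1.47 to 1.51). Its common-scale level was 39056 in KO Bsecs, against 359.6 and 5.31 in the basal columns. For Cldn4, KO Bsecs thus stood with the luminal column, far above both basal columns.

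Genes of adhesion to the basement membrane past the limit were mostly higher in KO Bsecs, among them Lama3 and Lamb3, chains of laminin-332. Of 21 that entered, Col17a1, Lama3, Lamb3 and Itga5 were at least 4-fold higher and Lama5 and Dst were lower, with a median of 1.21 (1.25 over genes that entered). Lama3 had 2245 in KO Bsecs and 371 in KO luminal cells, 6.06-fold higher (95% interval 5.46 to 6.73). Lamb3 had 1169.6 in KO Bsecs and 200.04 in KO luminal cells, 5.85-fold higher (95% interval 5.08 to 6.76). Itga5, a chain of the fibronectin receptor, was 6.06-fold higher. Lama5, a chain of other laminins, was 7.43-fold lower, and Dst, a hemidesmosome plakin, 4.49-fold.

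Collagens and matricellular genes were more often higher. Of 16 that entered, 7 were at least 4-fold higher and 3 lower, with a median of 2.08 (2.39 with the floor, 1.32 over genes that entered). Tnc, tenascin-C, had 7595 in KO Bsecs and 262 in KO luminal cells, 29.0-fold higher (95% interval 25.9 to 32.5). Fbn1, fibrillin-1, had 109 counts in KO Bsecs and 1 in KO luminal cells, 164-fold higher (95% interval 28.7 to 6516). Col4a2, a basement membrane collagen, and Postn, periostin, were 13.1-fold and 14.9-fold higher. Col4a5 and Col4a6, other chains of that collagen, were 14.6-fold and 5.07-fold lower, as was the matricellular gene Ctgf at 4.41-fold. The chains of type IV collagen thus stood on opposite sides.

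Of 19 matrix proteases and inhibitors that entered, 7 were at least 4-fold higher and 3 lower, with a median of 1.21. Timp3, a matrix-bound metalloprotease inhibitor, had 28542 in KO Bsecs and 1339.9 in KO luminal cells, 21.3-fold higher (95% interval 20.3 to 22.4). Its common-scale level was 24553 in KO Bsecs, against 1748 and 1585 in the basal columns. Mmp13, a collagenase, was 14.8-fold higher and Adam8, a membrane metalloprotease, 4.62-fold. Mmp15, Adam10 and Adam15, membrane proteases, were 15.7-fold, 5.36-fold and 5.55-fold lower. On totals, 3 were higher and 4 lower.

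Ligands and receptors of the EGF family differed in both directions. Of 9 that entered, Epgn and Nrg1 were at least 4-fold higher and Erbb3 and Areg lower, with a median of -0.25 (-0.26 with the floor, -0.22 over genes that entered). Epgn, the ligand epigen, had 2142 in KO Bsecs and 348 in KO luminal cells, 6.16-fold higher (95% interval 5.54 to 6.86). Nrg1, a neuregulin, had 238 in KO Bsecs and 43.3 in KO luminal cells, 5.49-fold higher (95% interval 4.03 to 7.59). Erbb3, a neuregulin receptor, had 2 counts in KO Bsecs and 452 in KO luminal cells, 151-fold lower (95% interval 41.5 to 1248), and Erbb4, the other, had 0 and 89. The neuregulin was thus higher where both receptors had few or no counts. On totals 1 gene was higher and 2 lower. Egfr, the receptor of Epgn and Areg, had a ratio of 0.860 (95% interval 0.767 to 0.963).

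Of 18 genes of TGF-beta, activin and BMP signalling that entered, 3 were at least 4-fold higher and 2 lower, with a median of 0.62 (0.54 over genes that entered). Inhba, an activin subunit, had 1307 in KO Bsecs and 93.9 in KO luminal cells, 13.9-fold higher (95% interval 11.5 to 17.0). Tgfb1, a TGF-beta ligand, had 441 in KO Bsecs and 101 in KO luminal cells, 4.35-fold higher (95% interval 3.54 to 5.38). Inhbb, another activin subunit, and Tgfb3 were 4.23-fold and 6.26-fold lower, and on either scale of totals 2 genes were higher and 2 lower. An activin subunit and its inhibitor Fst were thus both higher in KO Bsecs, but they differed in the basal columns. Inhba had a common-scale level of 1124 in KO Bsecs, against 6.73 and 1.33 in the basal columns, and Fst had 202, against 1608 and 1538.

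Of 7 Notch genes that entered, the ligands Dll1 and Jag1 were at least 4-fold higher and the receptor Notch3 was lower, with a median of 0.38 (0.12 with the floor, -0.41 over genes that entered). Jag1 had 1727 in KO Bsecs and 253 in KO luminal cells, 6.82-fold higher (95% interval 6.03 to 7.74). Notch3 had 9 counts in KO Bsecs and 343 in KO luminal cells, 25.4-fold lower (95% interval 13.2 to 56.0). Of 12 Wnt genes, Rnf43 and Znrf3, ligases that remove Wnt receptors, were 7.71-fold and 5.09-fold higher, and Wnt4 and the receptor Fzd7 were 5.01-fold and 4.80-fold lower, with a median of 0.67 (0.57 with the floor, 0.31 over genes that entered); on totals 1 was higher and 4 lower. Of 14 FGF and other growth factor receptor genes, the receptor kinase Axl was 18.0-fold higher, Fgfr3 12.1-fold and the ephrin Efnb1 8.39-fold, with a median of -0.94 (-0.64 with the floor, 0.24 over genes that entered). Fgfr2 and the ephrin Efna1 were 9.29-fold and 13.6-fold lower, so Fgfr3 and Fgfr2 went in opposite directions.

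Of 19 chemokine, cytokine and alarmin genes that entered, 4 were at least 4-fold higher and 2 lower, with a median of 1.15 (0.29 with the floor, -0.14 over genes that entered). Besides Csf2, Ccl20, a chemokine of mucosal immunity, was 8.68-fold higher, Il1rn, the interleukin-1 receptor antagonist, 6.51-fold and Ccl2, a monocyte chemokine, 4.82-fold. Cxcl15, a CXC chemokine, and Lcn2 were 20.1-fold and 31.1-fold lower, and on totals 3 genes were higher and 3 lower. Csf3, which encodes G-CSF, did not share the Csf2 difference, with 4229 in KO Bsecs and 3979 in KO luminal cells, a ratio of 1.06 (95% interval 1.02 to 1.11). Of 13 interferon response genes, Ifi202b, of a family of similar genes, was 33.1-fold higher and none was lower (on totals 1 higher and 2 lower, on totals without Rn45s 1 and 1), with a median of -0.87 (-0.75 with the floor, -0.43 over genes that entered). None of 12 genes of MHC class I presentation was past 4-fold, beside 6.41% higher and 10.1% lower over all 6665 genes. The median of the list was -0.59 (-0.40 over genes that entered). On totals 2 were lower, and on totals without Rn45s 1 was.

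Immediate early genes respond to growth factors and to tissue handling. Of 21 that entered, 19 were inside 4-fold, beside 5565 of all 6665 genes. Egr3 was 11.01-fold higher and Fosb 8.39-fold lower, with a list median of -0.57 (-0.40 over genes that entered). On totals 1 was higher and 3 lower. Of 7 S100 genes, S100a14 was 4.94-fold higher and S100a13 and S100a1 were 8.88-fold and 4.03-fold lower, with a median of -0.49 (0.00 with the floor, 0.46 over genes that entered); on totals 0 were higher and 2 lower.

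Ribosome biogenesis genes past the limit were higher in KO Bsecs. Of 19 genes of the nucleolus and Myc that entered, 9 were at least 4-fold higher and none was lower, with a median of 1.89 (2.00 with the floor, 1.92 over genes that entered). Npm1, nucleophosmin, had 8683 in KO Bsecs and 1444 in KO luminal cells, 6.02-fold higher (95% interval 5.71 to 6.34). Ncl, nucleolin, had 16203 in KO Bsecs and 3184 in KO luminal cells, 5.09-fold higher (95% interval 4.91 to 5.27). Nop58, a small nucleolar ribonucleoprotein protein, was 4.96-fold higher, Dkc1, dyskerin, 5.78-fold and Polr1b, a subunit of RNA polymerase I, 5.09-fold. Myc itself had 1195 in KO Bsecs and 1405 in KO luminal cells, a ratio of 0.851 (95% interval 0.786 to 0.921). The count depends on the scale, since 6 genes were past 4-fold on totals without Rn45s and 2 on totals. Rn45s, the transcript this machinery processes, had a ratio of 2.89 (95% interval 2.88 to 2.90, counting error only). Whether it is tied to these genes was not tested. The list summed to a common-scale level of 30863 in KO Bsecs and 8159 in KO luminal cells, and to 17263 and 26634 in the basal columns.

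Few cell-cycle genes entered. Among 8 D cyclins and inhibitors, Ccnd2 was past the limit and none was lower, with a median of 1.10 (0.08 with the floor, 1.12 over genes that entered). Ccnd1, another D cyclin, and Cdkn1a, the inhibitor p21, had ratios of 2.07 (95% interval 1.84 to 2.33) and 3.77 (95% interval 3.57 to 3.98). Of 5 S phase genes, Slbp, the histone mRNA binding protein, was 4.82-fold higher and Mcm6, a helicase subunit, 6.58-fold lower, with a median of -0.14 (0.00 with the floor, 0.55 over genes that entered); on totals 0 were higher and 1 lower. Of 2 G2 and M phase genes that entered, Anln, anillin, was 4.05-fold higher and none was lower, with a median of -0.96 (0.00 with the floor, 0.35 over genes that entered); Anln was inside 4-fold on totals, on totals without Rn45s and with TMM factors. The proliferation marker Mki67 had 3 counts in KO Bsecs and 2 in KO luminal cells.

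Of 13 fatty acid and cholesterol synthesis genes that entered, 4 were at least 4-fold lower and none higher, with a median of -1.15 (-0.69 with the floor, -1.44 over genes that entered). Scd1, a fatty acid desaturase, was 18.1-fold lower, Lss, lanosterol synthase, 23.2-fold, Srebf2, the sterol-sensing transcription factor, 5.23-fold and Sqle, squalene epoxidase, 4.37-fold. On totals, 7 of 14 were lower. Of 13 glycolysis and hypoxia genes, Egln3, an oxygen-sensing prolyl hydroxylase, was 13.9-fold lower and none was higher, with a median of 0.09 (0.00 with the floor, -0.07 over genes that entered); on both scales of totals 2 were lower. Of 4 hyaluronan genes, Has2 was past the limit and none was lower, with a median of 1.77 (0.00 with the floor), and the hyaluronan receptor Cd44 had 15609 in KO Bsecs and 4560.1 in KO luminal cells, a ratio of 3.42 (95% interval 3.32 to 3.53).

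Of 12 subunits of NURF and other ISWI complexes that entered, Smarca5, an ISWI ATPase, had 321 in KO Bsecs and 65.3 in KO luminal cells, 4.91-fold higher (95% interval 3.81 to 6.39), and none was lower, with a median of 0.55. Smarca1, another ISWI ATPase on the list, was at 0 in both columns. Of 17 SWI/SNF subunits, Smarce1 was 5.28-fold higher and Actl6a 5.43-fold, and none was lower, with a median of -0.06 (-0.05 over genes that entered). On totals Smarca5 was not past 4-fold and 1 other subunit of its list was lower, and neither SWI/SNF subunit was past 4-fold. Against WT luminal cells Actl6a went the other way, with a common-scale level of 80.1 in KO Bsecs and 123 in WT luminal cells.

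**Figure D4:**
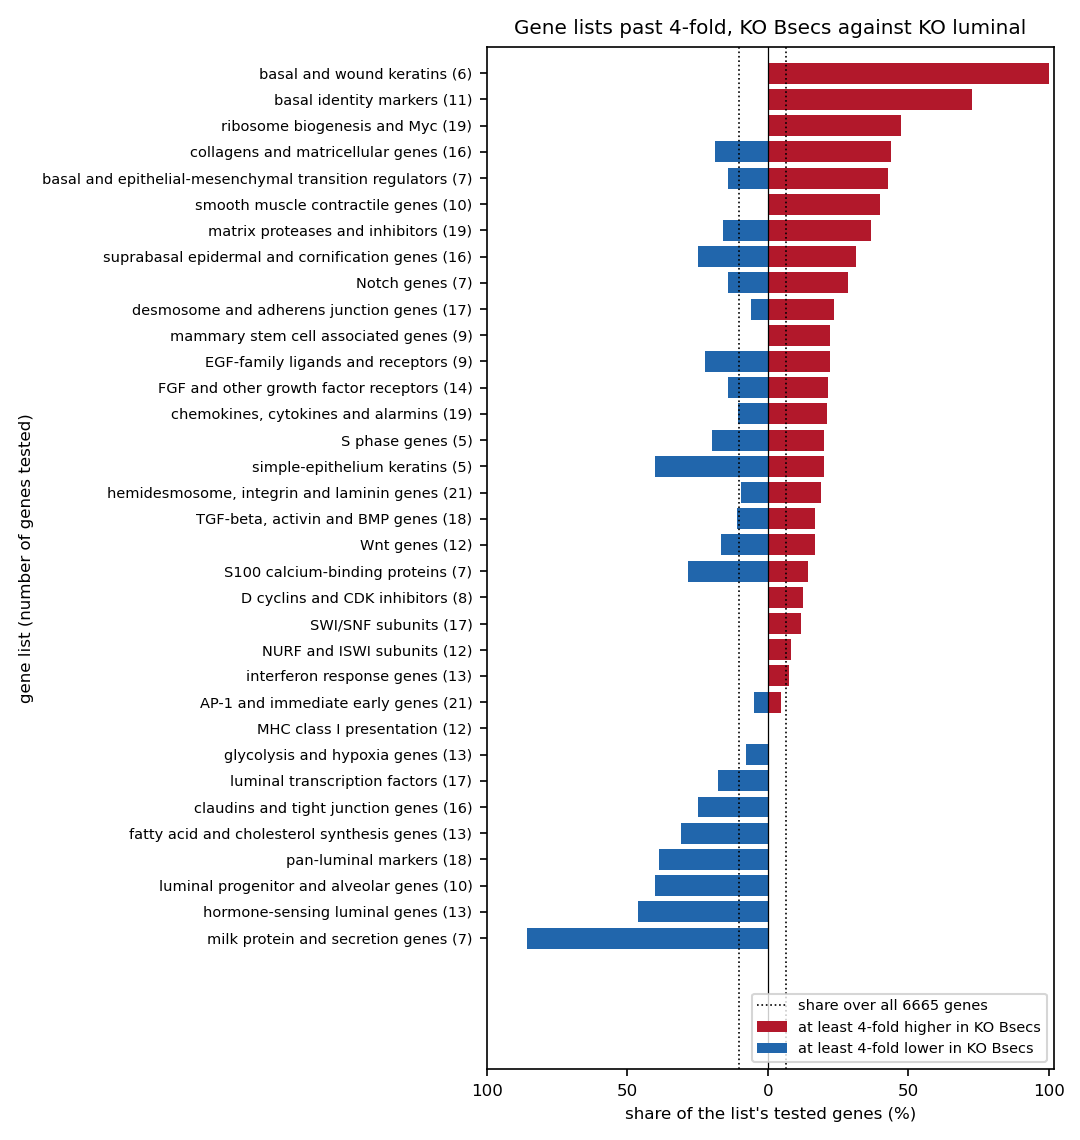
Share (percent) of the genes of each list that entered (number in brackets, lists of 5 or more) that were at least 4-fold higher (red) or lower (blue) in KO Bsecs than in KO luminal cells. Dotted lines mark the shares over all 6665 genes, 6.41% higher and 10.1% lower, and all 6 basal and wound keratins and 6 of 7 milk genes stand at the ends.

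Few markers of other cell types entered, and their part in the results was not tested. None of 21 leukocyte, 11 mast cell and neutrophil, 10 adipocyte or 7 erythrocyte markers entered. Ptprc, the pan-leukocyte antigen, had 2 counts in KO Bsecs and 3 in KO luminal cells, Adipoq 0 and 1, and Hbb-b1 0 in both. Summed common-scale levels were 72.7 in KO Bsecs and 172 in KO luminal cells for leukocyte markers, 0 in KO Bsecs and 12.3 in KO luminal cells for mast cell and neutrophil markers, 29.5 in KO Bsecs and 30.4 in KO luminal cells for adipocyte markers and 20.02 in KO Bsecs and 30.4 in KO luminal cells for erythrocyte markers. Of 12 fibroblast markers 3 entered, of which Dpt was 6.27-fold higher and Col6a3 and Dcn, decorin, were 8.36-fold and 4.82-fold lower. The summed fibroblast level was 495 in KO Bsecs and 1222 in KO luminal cells, of which Dcn made up 198 and 983. The list median went the other way from the sum, at 2.58 (1.88 with the floor, -2.26 over genes that entered). Lum, lumican, had 24 counts in KO Bsecs and 5 in KO luminal cells.

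Of 12 endothelial markers, Eng entered and was 6.62-fold lower, and the summed level was 24.2 in KO Bsecs and 169.9 in KO luminal cells, with a median of -2.02 (-1.36 with the floor, -2.65 over genes that entered). Pecam1 had 0 counts in KO Bsecs and 2 in KO luminal cells, and Cdh5 9 and 1. Of 9 pericyte markers, Notch3 entered, and the summed level was 57.9 in KO Bsecs and 267 in KO luminal cells, while the list median was 1.97 (1.70 with the floor, -4.55 over genes that entered). Rgs5 had 21 counts in KO Bsecs and 2 in KO luminal cells. No gene of the Schwann cell, skeletal muscle or hair follicle lists was past 4-fold. Their summed levels were 313 in KO Bsecs and 683 in KO luminal cells for Schwann cells, 67.4 in KO Bsecs and 44.8 in KO luminal cells for skeletal muscle and 460.4 in KO Bsecs and 351 in KO luminal cells for hair follicles.

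The basal and WT luminal columns share no library with this comparison and place its genes between the layers of the gland; this description was added after the data were seen. For the larger basal column over WT luminal cells, 539 of 6433 genes were higher by 4-fold or more (8.38%) and 692 lower by as much (10.8%). A gene could be placed where the mean of its basal and WT luminal levels was at least 50. A gene low in WT luminal cells could thus be placed only by a high basal level, and the reverse. The shares of placed genes are therefore no test against those of all genes. Of the 427 genes higher in KO Bsecs, 295 could be placed, of which 108 (36.6%) were higher in the basal column and 6 (2.03%) lower. Of the 673 genes lower in KO Bsecs, 511 could be placed, of which 259 (50.7%) were lower in the basal column and 8 (1.57%) higher. The shared genes made up 20.04% of the 539 and 37.4% of the 692.

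The smaller basal column over WT luminal cells had 677 of 6422 genes higher (10.5%) and 750 lower (11.7%). Of 299 placed genes higher in KO Bsecs, 128 (42.8%) were higher in this basal column and 7 (2.34%) lower. Of 522 placed genes lower in KO Bsecs, 259 (49.6%) were lower in it and 13 (2.49%) higher. The shared genes made up 18.9% of the 677 and 34.5% of the 750.

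**Figure D5:**
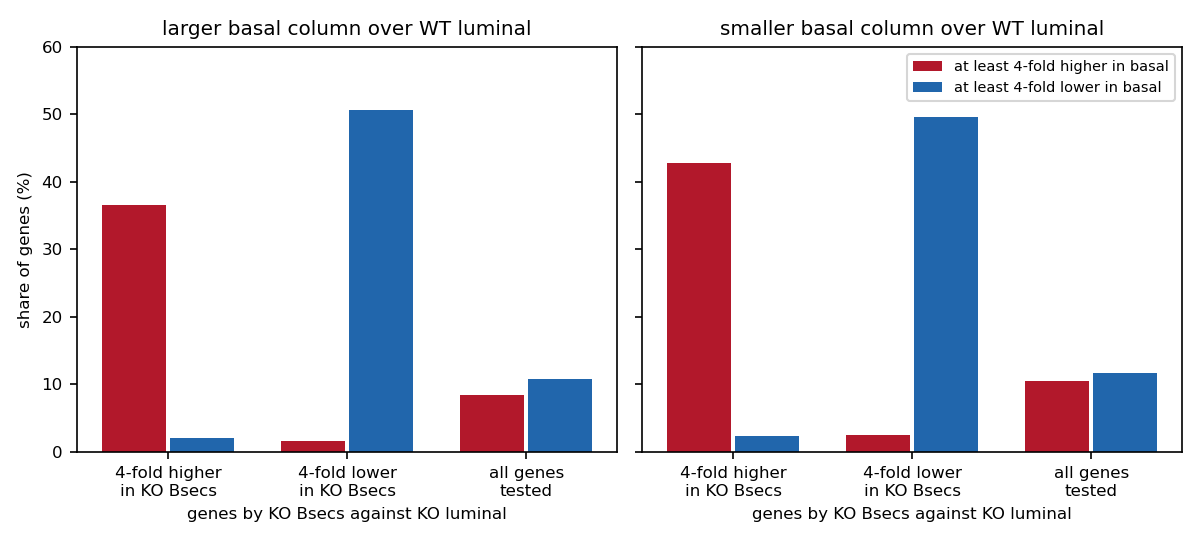
Share (percent) of placed genes at least 4-fold higher or lower in the larger and the smaller basal column than in WT luminal cells, for genes higher in KO Bsecs, genes lower in KO Bsecs and all genes tested. Placed genes higher in KO Bsecs were higher in basal cells in 36.6% and 42.8% of cases, beside 8.38% and 10.5% of all genes tested. A gene low in WT luminal cells could be placed only by a high basal level, so these shares are no test against all genes.

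Several genes high in KO Bsecs were low in the basal columns too. Csf2 had a common-scale level of 1242 in KO Bsecs and 11.6 in KO luminal cells, and 47.1 and 47.8 in the basal columns. Krt15 had 2694 and 92.5, and 45.2 and 41.2. Krt6a had 4914 and 356, and 54.8 and 3.98. In KO Bsecs these genes stood above every other column. Nlrp10 had 125 in KO Bsecs and 0 in the other 4 columns, and Skint3 had 621, against 4.81 and 0 in the basal columns. Has2 had 924 in KO Bsecs, and 809.6 and 1284 in the basal columns. Igfbp3 had 413, and 1655 and 669. Has2 and Igfbp3 were thus basal-column genes, unlike Csf2, Krt15, Krt6a, Nlrp10 and Skint3.

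Because the KO luminal genotype rests on titles, levels in WT luminal cells are set beside it. Ccnd2 had 1613 in KO Bsecs, 12.3 in KO luminal cells and 0 in WT luminal cells. Krt14 had 8945, 215 and 48.2 in the same columns, and Prlr 125, 7786 and 15006. Both luminal columns stood on the same side of KO Bsecs for these genes. Among the 15 genes farthest lower, Dmbt1 differed, with 115 in KO Bsecs, 8450.0 in KO luminal cells and 123 in WT luminal cells, so its difference rests on the KO luminal column. Of 143 named genes, 93 moved beyond their counting interval against WT luminal cells, and 1 more, Actl6a, reversed in sign. With WT in place of KO luminal cells, log2 ratios shrank from 5.21 to 1.98 for Sparc and from -2.43 to -0.40 for Adam15. That of Krt5 grew from 6.77 to 10.84. The tight junction median shrank from -1.15 to -0.13 and the pan-luminal median from -1.67 to -0.77.

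The authors' deposited table gives an unadjusted DESeq p-value for the 14800 genes with a count. Of these, 565 (3.82%) were under 0.05 in the authors' deposited table. After Benjamini-Hochberg adjustment of those DESeq p-values, Has2 was the 1 gene called higher in KO Bsecs (0.00676%), and Alox15, Csn3, Ltf, Muc4 and Nrxn3 were the 5 called lower (0.0338%). The smallest p in the authors' deposited table, for Alox15, was 1.73e-06, with an adjusted DESeq p of 0.0256, and the other 5 genes had adjusted DESeq p-values of 0.0429.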

How the data were processed

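RNA of FACS-sorted mammary cells was amplified with the Ovation RNA-seq V2 kit and made into Ovation ultralow libraries, per the labels' protocols. STAR, DESeq and the mm9 build are named in the submitters' processing notes, and the counting tool and its use of strand were not given in the sources used here. Each deposited table holds 1 DESeq normalised count per gene and group (a library-scaled signal), a ratio and a p-value, per the file headers. In the comparison used here the ratio ran luminal over Bsecs by its values, and the p-value was taken as unadjusted. The authors gave no value per library, and 0 columns were of other origin. All deposited normalised counts were whole multiples of a step per column, within 0.01, so whole counts were recovered; the step was 1.22 normalised units a count in KO Bsecs and 0.816 in KO luminal cells.

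The log2 ratio was recomputed as KO Bsecs over KO luminal cells, with Clopper-Pearson intervals (95%) on the split of counts, in Python 3.11.15 with scipy 1.17.1. Common-scale levels are counts divided by median-of-ratios factors over the 5 columns; they compare 1 gene between columns, never genes with each other. Genes named are Bptf, the 15 per direction whose interval lies farthest from 1, up to 5 list members per direction past 4-fold, and defining markers. Predicted genes, small RNAs, ribosomal RNA and symbols turned into dates or duplicated were left out of the naming. Alternatives were other scales, minimum means, fold limits and pseudocounts, the WT luminal column, the authors' p-values and edgeR 4.0.16 (exact test, dispersion 0.16). The edgeR code was run on data simulated at that same dispersion. Such a run cannot tell whether the dispersion holds in these libraries. The members and gene lists were chosen with earlier results of these data known.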

Additional observations from a re-analysis of the deposited data

How the results depend on the processing

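In KO Bsecs against KO luminal cells, 427 genes were higher and 673 lower by 4-fold or more. Scaling to totals gave 207 higher and 1055 lower. A minimum mean of 200 gave 168 and 204, no minimum gave 1875 and 3939, and a minimum of 20 gave 1204 lower. A limit of 2-fold gave 1563 higher and 1418 lower, and 8-fold gave 138 and 327. The authors' deposited DESeq p-values, adjusted, gave 1 higher and 5 lower. The exact test of edgeR, at a preset dispersion, gave 196 higher and 414 lower, or 629 and 782 unadjusted; that dispersion is not measured in these libraries. Counts within 1.5 times of the main ones came from totals without Rn45s (315 and 792), TMM (408 and 693), median-of-ratios over 5 columns (406 and 700), the WT luminal column (586 and 610) and, for higher genes, a minimum of 20 (619). Actl6a, at least 4-fold higher, reversed to a log2 ratio of -0.56 against the WT luminal column; the cause was not tested. Of 143 named genes, 34 moved beyond their counting interval on totals without Rn45s and 93, besides Actl6a, against WT luminal cells. Of 46 list medians, 2 moved with a pseudocount of 0.5, 16 with one of 10 and 12 with the WT luminal column. The median changed sign for 5 lists with the WT luminal column (immediate early 0.17, S phase 0.31, SWI/SNF 0.15, skeletal muscle 0.23 and erythrocyte 4.46), for 2 on totals without Rn45s (suprabasal -0.19 and glycolysis -0.12) and for 1 with a pseudocount of 10 (S phase 0.02). No paired analysis was possible because each group has 1 pooled column, and for the same reason no replicate could be left out. Genes with few counts have wide intervals.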
